A study of Mus musculus with 12 samples.

Results

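Transcript levels of the Wnt system were examined in mouse lung after bleomycin, in wild type mice and in mice that lack FIZZ2. The set held the genes whose symbol starts with Wnt, Fzd, Sfrp or Dkk followed by a digit, together with Frzb, Wif1, Lrp5, Lrp6, Axin2, Lef1, Tcf7 and Ctnnb1. Of 46 genes that match these names, 45 were measured among 18194 genes in all, each by its brightest probe set, a group of short probes for 1 transcript. Tcf7 was not analysed here. The 45 genes were 19 Wnt ligands, 12 receptors, 10 secreted antagonists, the transducer or readout genes Ctnnb1, Axin2 and Lef1, and Fzd10os, a transcript named for its place opposite Fzd10. All 45 entered the tests, since no gene was left out for a low level, and 15 of them had a mean log2 signal under 5.

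The lungs came from C57BL/6 mice, wild type or FIZZ2 knockout, that had received saline or bleomycin by endotracheal injection and were taken at day 21. FIZZ2, also called RELM-beta, is a secreted protein encoded by Retnlb, and bleomycin is a DNA-breaking drug that leaves scarred lung. Total RNA of whole lung was hybridized to 12 Affymetrix expression arrays, 3 in each of the 4 groups (wild type saline, wild type bleomycin, knockout saline and knockout bleomycin). Controls differed from the treated lungs of their genotype by the agent injected, and the labels used here do not say how the knockout was made, how old the mice were, or whether the 3 arrays of a group are separate animals. The p-values therefore measure the spread between these samples.

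Wnt proteins are secreted lipid-modified ligands that bind Frizzled receptors on the cell surface. With the co-receptors Lrp5 or Lrp6 they keep beta-catenin, the product of Ctnnb1, from being degraded, and beta-catenin then acts in the nucleus with Lef1 and other Tcf proteins to switch on genes such as Axin2, itself a brake on the pathway and a common readout of it. Some ligands, Wnt5a among them, mostly signal through other receptors such as Ror2 without beta-catenin. The secreted Frizzled-related proteins (Sfrp genes and Frzb) and Wif1 bind the ligands outside the cell, and most Dickkopf proteins (Dkk genes) act on Lrp5 and Lrp6. In lung, Wnt2 is a ligand of the mesenchyme, and Wnt7b is made by the epithelium.

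Of the 45 genes, 30 had an entry among the RefSeq promoter sequences (mouse build GRCm38.p6), with 37 promoters, each from 250 bases before to 50 bases after a transcription start. The promoters of 2 antagonists that rose together in wild type lung, Dkk2 and Frzb, and of 2 readout genes that fell together, Axin2 and Lef1, are printed to let their letters be compared. They read 5′ to 3′ on the strand of the gene, and capitals mark a TATA box (TATAAA) or a GC box (GGGCGG).
Dkk2, chr3:132085042-132085341, plus strand: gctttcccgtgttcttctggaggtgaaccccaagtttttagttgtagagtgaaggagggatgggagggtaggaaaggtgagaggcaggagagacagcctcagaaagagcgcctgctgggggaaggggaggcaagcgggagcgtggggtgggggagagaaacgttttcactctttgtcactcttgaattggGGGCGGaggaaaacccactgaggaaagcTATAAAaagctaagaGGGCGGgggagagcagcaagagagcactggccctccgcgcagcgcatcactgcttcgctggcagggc
Frzb, chr2:80447347-80447646, minus strand: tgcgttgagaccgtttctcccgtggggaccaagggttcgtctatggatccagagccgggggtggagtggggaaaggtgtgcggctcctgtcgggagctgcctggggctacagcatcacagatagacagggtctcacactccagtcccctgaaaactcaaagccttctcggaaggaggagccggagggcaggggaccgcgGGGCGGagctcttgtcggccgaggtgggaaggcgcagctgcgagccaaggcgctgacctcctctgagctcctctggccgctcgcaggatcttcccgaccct
Axin2, chr11:108920099-108920398, plus strand: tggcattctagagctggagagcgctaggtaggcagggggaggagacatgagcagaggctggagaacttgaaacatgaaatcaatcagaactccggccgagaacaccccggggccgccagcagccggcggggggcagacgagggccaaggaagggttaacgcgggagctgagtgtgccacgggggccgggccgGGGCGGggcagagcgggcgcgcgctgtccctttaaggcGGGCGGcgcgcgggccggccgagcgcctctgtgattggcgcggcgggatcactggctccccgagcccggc
Lef1, chr3:131110047-131110346, plus strand, the first of its 4 listed starts: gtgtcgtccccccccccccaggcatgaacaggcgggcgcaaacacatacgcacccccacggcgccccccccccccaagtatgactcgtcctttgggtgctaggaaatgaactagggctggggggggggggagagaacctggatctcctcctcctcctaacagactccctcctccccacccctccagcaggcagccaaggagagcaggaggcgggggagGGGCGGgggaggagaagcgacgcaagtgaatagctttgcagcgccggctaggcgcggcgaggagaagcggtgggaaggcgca

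Both strands were searched for these motifs, for the TCF/LEF motif CTTTGAT, which on the other strand is read as ATCAAAG, and for the AP-1 motif TGANTCA, and no match overlapped another motif's match in the 4 windows shown. Dkk2 held a TATA box starting at position -32 from its start and GC boxes at -60 and -17, and the other promoters held GC boxes only, at -51 in Frzb, at -58 and -20 in Axin2 and at -32 in Lef1. The bases G and C made up 57.7% of the Dkk2 promoter, 64.7% of that of Frzb, 70.0% of that of Axin2 and 67.3% of that of Lef1, against a median of 52.7% over 32851 promoters. A GC box was found in 29 of the 37 promoters of the set (78.4%) and in 35.7% of all promoters, a TATA box in 18.9% and 13.6%, an AP-1 motif in 2.7% and 7.81%, and a TCF/LEF motif in 2 of 37 (5.41%, in Wnt11 and Wnt5b) and 3.73%. A match describes the letters of a window and does not show that a factor binds there.

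The median log2 signal of the 12 arrays lay between 5.58 and 5.68, and arrays of 1 group correlated with each other at 0.988 to 0.997 across probe sets, which are not independent replicates. The targeted gene Retnlb had a mean log2 signal of 3.69 ± 0.14 (SD, n = 3) in wild type saline, 3.97 ± 0.17 in wild type bleomycin, 3.69 ± 0.14 in knockout saline and 3.63 ± 0.12 in knockout bleomycin lungs. After bleomycin the 3 wild type arrays (4.13, 3.80 and 3.98) and the 3 knockout arrays (3.67, 3.72 and 3.49) did not overlap, and the log2 difference of -0.35 did not pass (adjusted p = 0.0502). With a signal this low in all groups, Retnlb says little about the genotype labels. Lung marker genes were bright in all arrays: the mean log2 signal of the alveolar type 1, alveolar type 2 and club cell lists was at least 11.42 on every array. In whole-lung RNA, fewer cells of a type and less RNA per cell cannot be told apart.

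In wild type lung, bleomycin changed 20 of the 45 genes, 13 upwards and 7 downwards (limma, Benjamini-Hochberg adjusted p under 0.05 over all 18194 genes, which is what "rose" and "fell" mean here). That is 44.4% of the set, where 27.7% of all genes passed, 13.3% upwards and 14.4% downwards. The 3 bleomycin and 3 saline arrays did not overlap for 22 of the 45 genes, all 20 that passed among them, and for 40% of all genes. Most antagonists rose: Sfrp1, Frzb, Dkk2, Sfrp2, Dkk3 and Sfrp4 were higher, 6 of 10, and none was lower. Of the ligands, Wnt5a, Wnt7b, Wnt10a and Wnt7a rose and Wnt2 and Wnt3a fell, of 19. Of the receptors, Fzd1, Fzd2 and Fzd6 rose and Fzd4, Fzd7 and Lrp6 fell, of 12, and the readout genes Axin2 and Lef1 fell. The median log2 change over the 45 genes was 0.01, against -0.04 over all genes.

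In knockout lung 5 of the 45 genes passed (11.1%, where 3.26% of all genes passed, 1.98% upwards and 1.29% downwards): Sfrp1, Wnt5a and Wnt7b rose, and Axin2 and Lef1 fell. All 5 had moved the same way in wild type. The arrays of the 2 knockout groups did not overlap for 9 of the 45 genes and for 27% of all genes. The count of 5 depended on single arrays, and so did the share of all genes that passed. It was 0 without knockout saline array 1 or without knockout bleomycin array 2 (1.35% of all genes in either case). It was 1 without knockout bleomycin array 3 (1.6%) and 2 without knockout saline array 2 (1.16%) or 3 (1.6%). It was 3 without wild type saline array 1 (2.69%) or wild type bleomycin array 2 (2.63%) or 3 (2.81%). With each array's median subtracted, 3 genes rose and 0 fell, where 3.12% of all genes passed.

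The difference between the genotypes' responses was tested directly. It passed for 6 of the 45 genes (13.3%, where 5.02% of all genes passed, 3% downwards), and in each the knockout's change was below that of wild type: Sfrp1, Frzb, Dkk2, Sfrp2, Wnt5a and Fzd1. Of these 6, Sfrp1 and Wnt5a rose in the knockout, and the other four did not pass there. The remaining 39 genes did not pass, which does not show that their responses were alike. The difference and the comparison of the genotypes after bleomycin use the same arrays as the responses, so the values of 1 gene in these comparisons are not independent of each other.

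**Figure D1:**
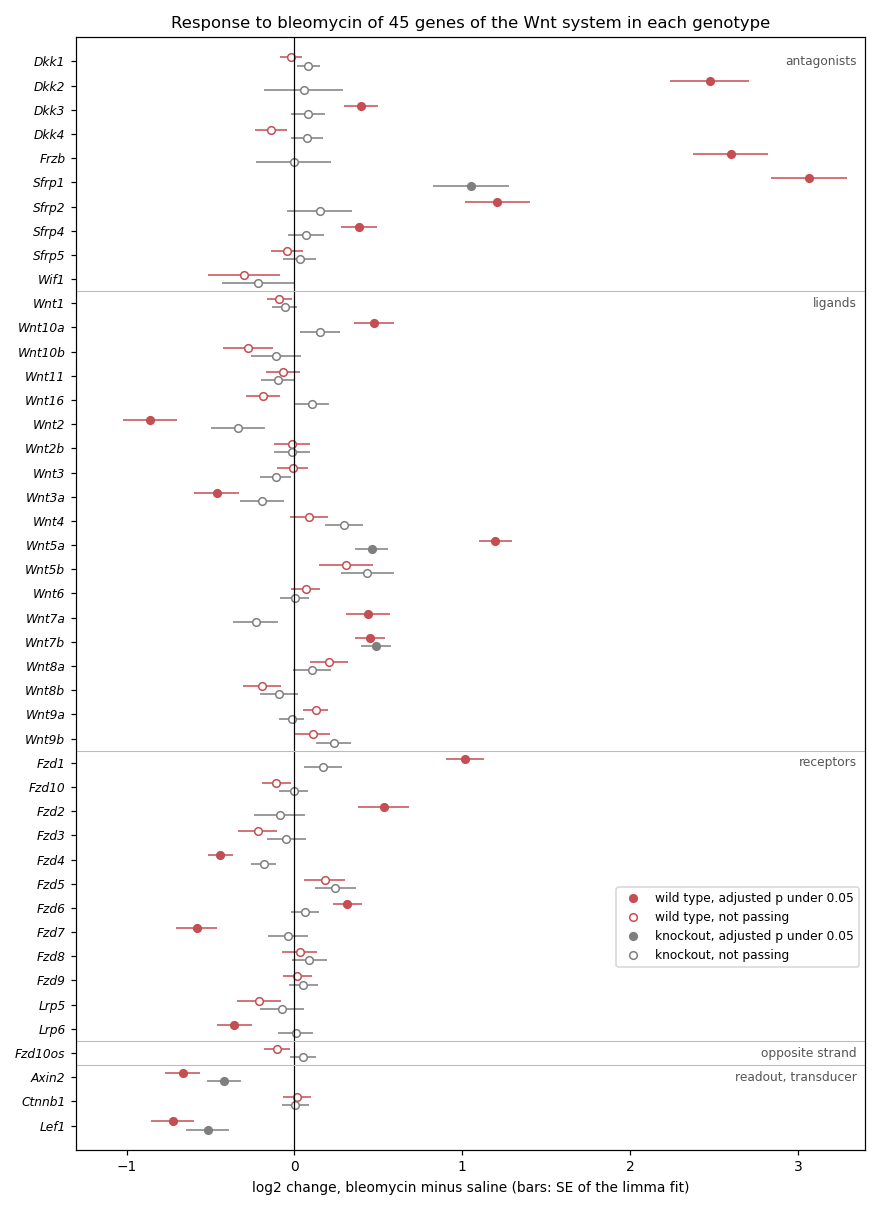
Log2 change from saline to bleomycin (horizontal axis) of the 45 genes, grouped by role, in wild type (red) and knockout (grey) lung, with bars of 1 SE of the limma fit and filled points for an adjusted p under 0.05. In wild type the filled points reach 3.07 for Sfrp1, and in the knockout 5 points are filled.

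Sfrp1, a secreted decoy that binds Wnt proteins, rose in both genotypes. Its log2 signal was 7.79, 7.94 and 7.65 in wild type saline and 11.20, 10.65 and 10.72 in wild type bleomycin lungs. In the knockout it was 7.59, 7.95 and 7.94 after saline and 8.25, 9.18 and 9.21 after bleomycin. All bleomycin arrays of a genotype lay above its saline arrays, and all wild type bleomycin arrays lay above all knockout bleomycin arrays. The log2 change was 3.07 ± 0.22 (SE) in wild type, 8.37-fold (adjusted p = 1.79e-06), and 1.05 ± 0.22 in the knockout, 2.07-fold (adjusted p = 0.0249). The knockout's change was smaller by a log2 difference of -2.01 ± 0.32 (adjusted p = 0.006). The rise in the knockout did not pass without any 1 of its saline arrays or of bleomycin arrays 2 and 3 (log2 change 0.89 to 1.11, adjusted p 0.057 to 0.0996).

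Frzb, a secreted Frizzled-related protein of cartilage, passed in wild type and did not pass in the knockout. It stood at 3.60, 3.83 and 3.94 in wild type saline and at 6.99, 6.33 and 5.84 in wild type bleomycin lungs. Knockout lungs gave 3.70, 4.03 and 3.89 after saline and 3.59, 4.07 and 3.95 after bleomycin, so that the knockout groups overlapped. The log2 change was 2.60 ± 0.22 in wild type, 6.06-fold (adjusted p = 4.52e-06), and -0.01 in the knockout (95% interval -0.49 to 0.48, adjusted p = 0.994). The responses differed by -2.60 ± 0.32 (adjusted p = 0.00212).

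Dkk2, a Dickkopf protein that binds Lrp5 and Lrp6, was also highest in wild type bleomycin lungs. Wild type saline lungs had log2 signals of 3.70, 3.54 and 3.47, and wild type bleomycin lungs 6.79, 5.78 and 5.56. In the knockout the signals were 3.74, 3.72 and 3.84 after saline and 3.57, 3.89 and 3.997 after bleomycin. The wild type bleomycin arrays lay above all other arrays, and the knockout groups overlapped. The change was 2.48 ± 0.24 in wild type, 5.56-fold (adjusted p = 9.67e-06), and 0.06 in the knockout (95% interval -0.45 to 0.56, adjusted p = 0.936), a difference of -2.42 ± 0.33 (adjusted p = 0.0032). Detection calls were not used, so whether the saline signals of Frzb and Dkk2 lie above background was not tested.

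Sfrp2, another secreted Frizzled-related protein, was 5.91, 6.49 and 6.58 in wild type saline and 7.50, 7.37 and 7.74 in wild type bleomycin lungs. Its knockout signals were 5.70, 6.05 and 6.10 after saline and 5.77, 6.10 and 6.43 after bleomycin. The wild type groups were apart and the knockout groups overlapped. The change was 1.21 ± 0.19 in wild type, 2.31-fold (adjusted p = 0.000487), and 0.15 in the knockout (adjusted p = 0.749), and the difference was -1.06 ± 0.27 (adjusted p = 0.044). That difference was lost without any 1 of 9 arrays, all but wild type saline array 3, wild type bleomycin array 2 and knockout bleomycin array 3 (log2 difference -1.18 to -0.85, adjusted p 0.0519 to 0.104). It was also lost with repeated quantile normalization (-0.96, adjusted p = 0.0606), with the mean of all probe sets (-1.06, adjusted p = 0.0519) and with every probe set adjusted separately (-1.06, adjusted p = 0.0696).

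Smaller rises were found for Dkk3, a divergent relative of the Dickkopf proteins, and for Sfrp4, a secreted Frizzled-related protein. Dkk3 was 8.75, 8.82 and 8.85 in wild type saline, 9.43, 9.16 and 9.02 in wild type bleomycin, 8.78, 8.81 and 8.86 in knockout saline and 8.75, 8.997 and 8.94 in knockout bleomycin lungs. Sfrp4 was 6.29, 6.29 and 6.48, then 6.76, 6.60 and 6.85, then 6.31, 6.58 and 6.38, and last 6.31, 6.56 and 6.61 in the same order. In wild type, Dkk3 rose by 0.40 ± 0.10 (1.32-fold, adjusted p = 0.0103) and Sfrp4 by 0.39 ± 0.10 (1.31-fold, adjusted p = 0.0147), both with no overlap between the groups. Their knockout changes were 0.08 and 0.07, and the differences between responses, -0.32 for each, did not pass (adjusted p = 0.221 for Dkk3 and 0.237 for Sfrp4). The rise of Sfrp4 did not pass without wild type saline array 1 (0.35, adjusted p = 0.0557) or wild type bleomycin array 3 (0.33, adjusted p = 0.0621). The antagonists Dkk1, Dkk4, Sfrp5 and Wif1 did not pass in any comparison, with wild type log2 changes from -0.30 for Wif1 to -0.02 for Dkk1.

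**Figure D2:**
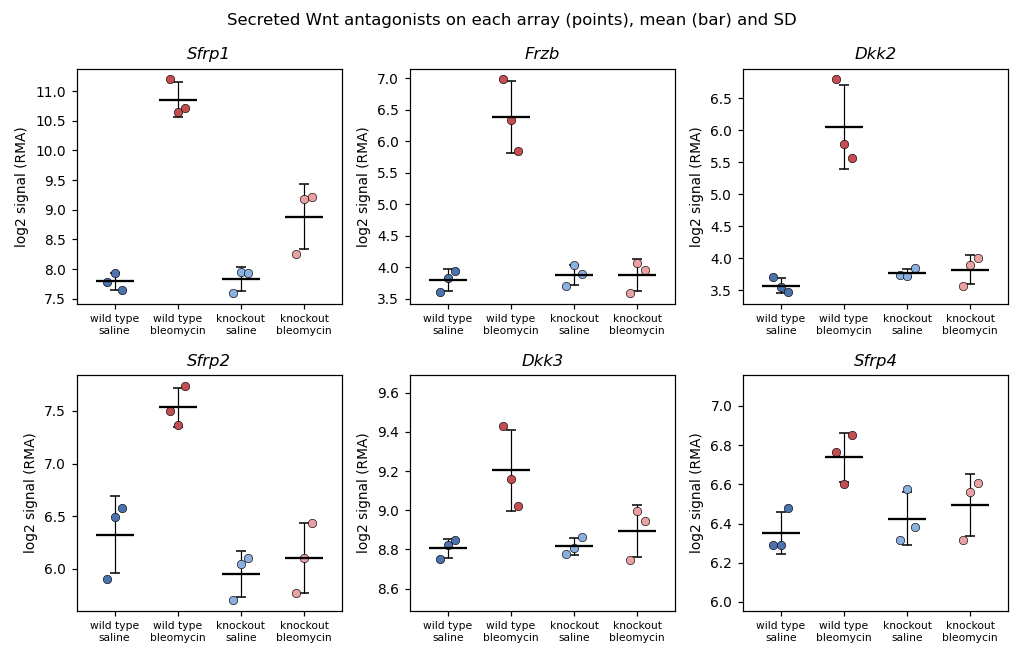
Log2 signal (vertical axis, a range of its own in each panel) of the 6 antagonists that rose in wild type lung, on each of 3 arrays in each of 4 groups, with the mean (bar) and SD (whiskers). The wild type bleomycin points stand above the wild type saline points in every panel, and in the knockout bleomycin group Sfrp1 alone stands clear of knockout saline.

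A list of 9 fibroblast genes (Col1a1, Col1a2, Col3a1, Pdgfra, Pdgfrb, Tcf21, Dcn, Lum and Postn) was measured on the same arrays. In wild type 6 of the 9 rose and 2 fell after bleomycin, and the mean log2 signal of the list went from 10.61 to 10.82 on the saline arrays to 11.28 to 11.53 on the bleomycin arrays. In the knockout 3 rose and 0 fell, and the range was 10.54 to 10.72 after saline and 10.72 to 11.02 after bleomycin. The difference between the genotypes' responses passed for 1 of the 9, Col1a1, and was downwards. Of 6 macrophage genes 4 rose in each genotype, and their mean log2 signal went from 7.83 to 8.20 after saline to 9.22 to 9.83 after bleomycin in wild type and from 8.03 to 8.23 to 8.64 to 8.89 in the knockout. Their difference between responses passed for 3 of 6, all downwards. Of 6 smooth muscle genes 0 passed and of 6 mesothelial genes 1 rose in wild type. Between the genotypes after bleomycin, 4 of 9 fibroblast, 4 of 6 smooth muscle and 3 of 6 macrophage genes were lower in the knockout. There, 1 of the 9 fibroblast genes was higher. Also higher were 4 of 5 alveolar type 2, 4 of 5 club and 4 of 6 ciliated genes. The same held for 3 of 6 vascular endothelial, 3 of 6 T and NK cell and 1 of 5 adipocyte genes. Of 6 alveolar type 1 genes 1 was higher and 1 lower, of 6 mesothelial genes 1 was lower, and of 8 cardiac muscle genes 0 passed. Of all genes 15.4% passed in that comparison. After saline 1 of the 9 fibroblast genes was lower in the knockout, where 0.489% of all genes passed. The part of these cell types in the changes of the antagonists was not tested.

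Among the ligands, Wnt5a had the largest change that passed. It was 6.50, 6.45 and 6.60 in wild type saline, 7.66, 7.75 and 7.72 in wild type bleomycin, 6.62, 6.78 and 6.43 in knockout saline and 7.04, 7.24 and 6.94 in knockout bleomycin lungs. The arrays of the 4 groups did not overlap except between the saline groups. Wnt5a rose by 1.20 ± 0.10 in wild type, 2.29-fold (adjusted p = 3.43e-06), and by 0.46 ± 0.10 in the knockout, 1.38-fold (adjusted p = 0.0267), a difference of -0.74 ± 0.14 (adjusted p = 0.0125). The knockout's rise did not pass without knockout saline array 1 or 3 or knockout bleomycin array 2 (0.37 to 0.47, adjusted p 0.0833 to 0.102), nor with only the 2 compared groups in the fit (0.46, adjusted p = 0.0578).

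Wnt7b, an epithelial ligand, rose by nearly equal amounts in both genotypes. Its log2 signal was 6.97, 7.06 and 6.99 in wild type saline, 7.41, 7.45 and 7.52 in wild type bleomycin, 6.73, 6.92 and 6.84 in knockout saline and 7.13, 7.38 and 7.44 in knockout bleomycin lungs. The change was 0.45 ± 0.09 in wild type, 1.37-fold (adjusted p = 0.00224), and 0.49 ± 0.09 in the knockout, 1.4-fold (adjusted p = 0.0117). The difference between the 2 changes was 0.04, with a 95% interval from -0.24 to 0.31 (adjusted p = 0.9). The knockout's rise was lost without knockout saline array 1 or knockout bleomycin array 2 or 3 (0.43 to 0.46, adjusted p 0.0523 to 0.0596). The dimmer probe set of Wnt7b passed in neither genotype (0.13 in wild type, adjusted p = 0.344, and 0.14 in the knockout, adjusted p = 0.519).

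Wnt10a, a ligand of the canonical branch, was low on every array. It read 4.38, 4.61 and 4.39 in wild type saline, 5.10, 5.00 and 4.70 in wild type bleomycin, 4.11, 4.32 and 4.34 in knockout saline and 4.24, 4.41 and 4.57 in knockout bleomycin lungs. In wild type it rose by 0.48 ± 0.12 (1.39-fold, adjusted p = 0.00947), and the knockout change was 0.15 (adjusted p = 0.567). Wnt7a, a close relative of Wnt7b, read 6.71, 7.09 and 6.51 in wild type saline, 7.16, 7.21 and 7.26 in wild type bleomycin, 7.004, 7.20 and 7.17 in knockout saline and 7.02, 6.98 and 6.69 in knockout bleomycin lungs. The wild type arrays did not overlap, and the lowest knockout array was one after bleomycin. Wnt7a rose by 0.44 ± 0.13 in wild type (1.36-fold, adjusted p = 0.0247) and its knockout change was -0.23 (adjusted p = 0.395). The difference of -0.67 between these changes did not pass (adjusted p = 0.0571), but passed without wild type saline array 2 (-0.83, adjusted p = 0.0139) and with arrays weighted by their quality (-0.76, adjusted p = 0.00578). The wild type rise of Wnt7a was lost without wild type saline array 1 or 3 or wild type bleomycin array 2 or 3 (0.31 to 0.44, adjusted p 0.0571 to 0.0986), with the mean of all probe sets (0.18, adjusted p = 0.0634) and with only the 2 compared groups in the fit (0.44, adjusted p = 0.0563).

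Wnt2, the mesenchymal lung ligand, fell in wild type. The log2 signals were 7.77, 7.88 and 7.84 after saline and 6.83, 6.97 and 7.11 after bleomycin. Knockout lungs had 8.09, 8.03 and 8.26 after saline and 8.26, 7.66 and 7.45 after bleomycin. Knockout bleomycin array 1 was level with the saline arrays, and the other two lay below them. The wild type change was -0.86 ± 0.16, 1.81-fold lower (adjusted p = 0.00149). The knockout change of -0.34 did not pass (adjusted p = 0.296) with all arrays, and passed without knockout bleomycin array 1 (-0.57, adjusted p = 0.0132). The difference between responses, 0.52, did not pass (adjusted p = 0.205).

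Wnt3a, a canonical ligand, also fell in wild type. It was 7.67, 7.86 and 7.69 in wild type saline, 6.93, 7.48 and 7.43 in wild type bleomycin, 7.53, 7.65 and 7.76 in knockout saline and 7.60, 7.41 and 7.34 in knockout bleomycin lungs. The wild type bleomycin arrays all lay below the wild type saline arrays, and knockout array values overlapped. The wild type change was -0.46 ± 0.13 (adjusted p = 0.0194) and the knockout change -0.19 (adjusted p = 0.489). The fall did not pass without wild type saline array 2 (-0.40, adjusted p = 0.0688) or wild type bleomycin array 1 (-0.29, adjusted p = 0.0636), nor with only the 2 compared groups in the fit (-0.46, adjusted p = 0.0561).

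Fzd1, a Frizzled receptor, had the largest change among the receptors. Wild type saline lungs gave 9.55, 9.48 and 9.72 and wild type bleomycin lungs 10.82, 10.47 and 10.51. Knockout lungs gave 9.65, 9.63 and 9.60 after saline and 9.81, 9.61 and 9.97 after bleomycin. The wild type groups were apart and the knockout groups overlapped. Fzd1 rose by 1.02 ± 0.11 in wild type, 2.03-fold (adjusted p = 2.92e-05), its knockout change was 0.17 (adjusted p = 0.466), and the responses differed by -0.85 ± 0.16 (adjusted p = 0.0113).

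Fzd2 and Fzd6 rose in wild type by less. Fzd2 was 8.15, 8.10 and 8.66 in wild type saline, 8.88, 8.66 and 8.96 in wild type bleomycin, 8.61, 8.63 and 8.52 in knockout saline and 8.79, 8.31 and 8.40 in knockout bleomycin lungs. Fzd6, a Frizzled of tissue polarity, was 9.35, 9.23 and 9.16, then 9.59, 9.64 and 9.45, then 9.57, 9.41 and 9.41, and last 9.45, 9.61 and 9.52 in the same order. Their wild type changes were 0.53 ± 0.15 for Fzd2 (1.45-fold, adjusted p = 0.0186) and 0.32 ± 0.09 for Fzd6 (1.24-fold, adjusted p = 0.014), and the knockout changes were -0.09 and 0.06. Knockout saline arrays of both genes already lay near or above the highest wild type saline array. The Fzd2 call was lost without wild type saline array 1 or 2 or wild type bleomycin array 1 or 3 (0.43 to 0.51, adjusted p 0.0529 to 0.0764), and its difference between responses, -0.62 (adjusted p = 0.115), passed without wild type saline array 3 (-0.80, adjusted p = 0.0338). The Fzd6 call was lost without wild type saline array 3 or wild type bleomycin array 2 (0.27 for each, adjusted p = 0.053 and 0.0545).

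Fzd4, the receptor for norrin in blood vessels, fell in wild type. It was 9.73, 9.74 and 9.58 in wild type saline, 9.26, 9.31 and 9.15 in wild type bleomycin, 9.62, 9.54 and 9.52 in knockout saline and 9.40, 9.36 and 9.37 in knockout bleomycin lungs. In both genotypes the bleomycin arrays lay below the saline arrays. The change was -0.44 ± 0.08 in wild type, 1.36-fold lower (adjusted p = 0.000759), and -0.18 in the knockout (adjusted p = 0.215). A second probe set of Fzd4, nearly as bright (mean log2 signal 9.33 against 9.47), changed by -0.10 in wild type and did not pass (adjusted p = 0.519). A list of 6 vascular endothelial genes fell for 4 in wild type (mean log2 signal 10.78 to 11.05 after saline and 10.53 to 10.58 after bleomycin) and for 2 in the knockout, and its part in the fall of Fzd4 was not tested.

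Fzd7 and the co-receptor Lrp6 fell in wild type as well. Fzd7 was 8.68, 8.65 and 8.79 in wild type saline, 7.81, 8.29 and 8.28 in wild type bleomycin, 8.66, 8.63 and 8.58 in knockout saline and 8.76, 8.55 and 8.46 in knockout bleomycin lungs. Lrp6 was 9.30, 9.44 and 9.32, then 8.82, 9.19 and 8.97, then 8.996, 9.15 and 9.27, and last 9.22, 9.05 and 9.17 in the same order. For both genes the wild type groups were apart and the knockout groups overlapped. The wild type changes were -0.58 ± 0.12 for Fzd7 (1.5-fold lower, adjusted p = 0.00298) and -0.36 ± 0.10 for Lrp6 (adjusted p = 0.0198), and the knockout changes were -0.04 and 0.01. The fall of Fzd7 was lost with the mean of all probe sets (-0.33, adjusted p = 0.0517). The fall of Lrp6 was lost without wild type saline array 2 or wild type bleomycin array 1 or 3 (-0.35 to -0.27, adjusted p 0.0567 to 0.0822) and with only the 2 compared groups in the fit (-0.36, adjusted p = 0.05002).

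Axin2 and Lef1, whose levels are used to read the pathway, fell in both genotypes. Axin2 was 8.12, 8.02 and 8.31 in wild type saline, 7.43, 7.51 and 7.51 in wild type bleomycin, 8.29, 8.24 and 8.20 in knockout saline and 8.05, 7.75 and 7.67 in knockout bleomycin lungs. Lef1 was 7.55, 7.46 and 7.33, then 6.55, 6.85 and 6.76, then 7.68, 7.57 and 7.28, and last 7.14, 7.10 and 6.75 in the same order. For both genes the bleomycin arrays lay below the saline arrays of their genotype without overlap. Axin2 changed by -0.67 ± 0.10 in wild type, 1.59-fold lower (adjusted p = 0.000358), and by -0.42 ± 0.10 in the knockout, 1.34-fold lower (adjusted p = 0.043). Lef1 changed by -0.73 ± 0.13 in wild type, 1.65-fold lower (adjusted p = 0.00104), and by -0.52 ± 0.13 in the knockout, 1.43-fold lower (adjusted p = 0.0484). The differences between the genotypes' changes were 0.25 for Axin2 (95% interval -0.07 to 0.56, adjusted p = 0.348) and 0.21 for Lef1 (-0.19 to 0.60, adjusted p = 0.547).

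The knockout calls of the readout genes were close to the threshold. That of Axin2 was lost without any 1 of 8 arrays (wild type saline 1, wild type bleomycin 2 and 3, all knockout saline arrays, knockout bleomycin 2 and 3), with changes from -0.44 to -0.35 and adjusted p from 0.0582 to 0.161. That of Lef1 was lost without any 1 of 9 arrays (all wild type saline arrays, wild type bleomycin 2 and 3, knockout saline 1 and 2, knockout bleomycin 2 and 3), with changes from -0.57 to -0.39 and adjusted p from 0.0529 to 0.174. With each array's median subtracted the adjusted p was 0.0653 for both. Both calls were also lost with the mean of all probe sets, every probe set adjusted separately and only the 2 compared groups in the fit. That of Axin2 was lost with the replicate number as a block, and that of Lef1 with repeated quantile normalization. Of 21 alternatives, 13 lost the Axin2 call and 14 the Lef1 call. Lef1 is also a transcription factor of T cells. Of 6 T and NK cell genes 5 fell in wild type (mean log2 signal 7.26 to 7.58 after saline, 6.26 to 6.74 after bleomycin) and 0 in the knockout (7.38 to 7.51 and 7.12 to 7.28), and their part in the fall of Lef1 was not tested.

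Ctnnb1, which encodes beta-catenin, did not pass in any comparison. It was 12.99, 12.88 and 13.04 in wild type saline, 12.82, 13.07 and 13.06 in wild type bleomycin, 13.04, 13.03 and 12.99 in knockout saline and 13.04, 13.09 and 12.96 in knockout bleomycin lungs, with all groups overlapping. The wild type change was 0.01 ± 0.08 (95% interval -0.17 to 0.19, adjusted p = 0.918). Transcript level says nothing of how much beta-catenin protein was kept from degradation.

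**Figure D3:**
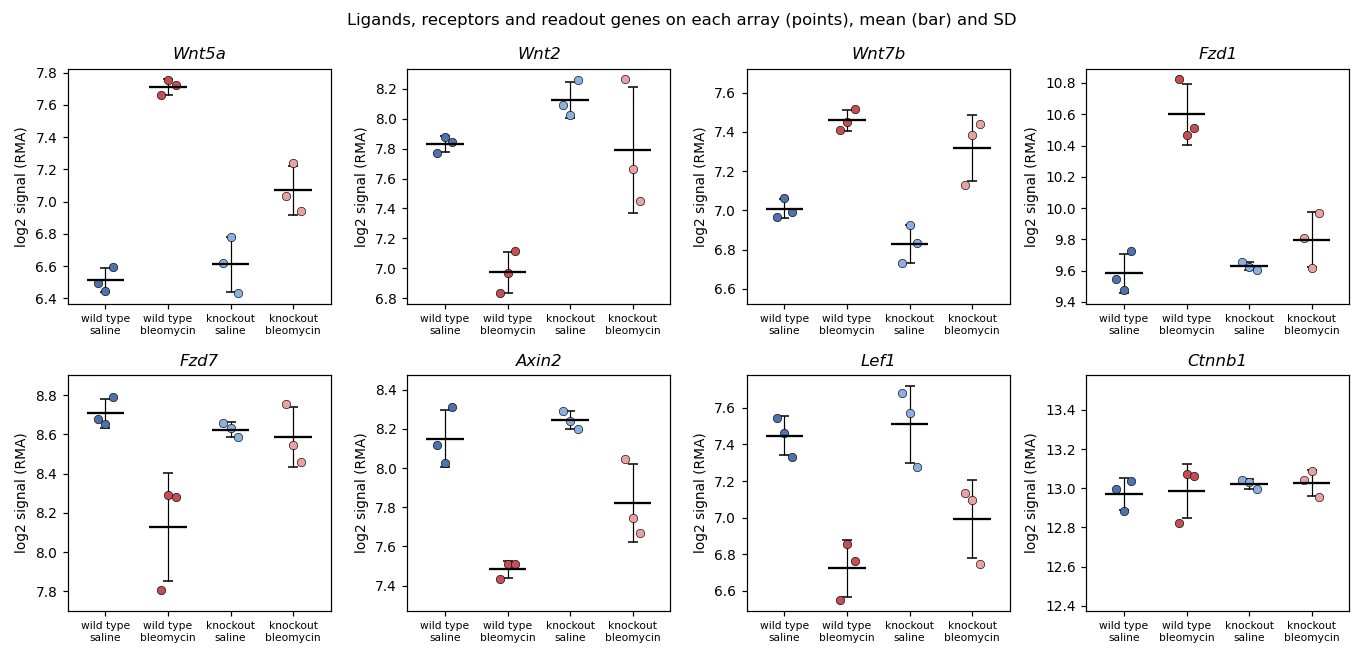
Log2 signal (vertical axis, a range of its own in each panel) of 3 ligands, 2 receptors and 3 transducer or readout genes on each of 3 arrays in each of 4 groups, with the mean (bar) and SD (whiskers). Wnt5a and Fzd1 stand highest in wild type bleomycin lungs, Wnt2 and Fzd7 lowest there, Axin2 and Lef1 are below saline in both genotypes, and Ctnnb1 overlaps in all groups.

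Array 1 lay at an extreme of its group for several genes. Among wild type bleomycin lungs, array 1 had the highest signals of Sfrp1, Frzb, Dkk2, Dkk3 and Fzd1 and the lowest of Wnt2, Wnt3a, Fzd7, Axin2, Lef1 and Lrp6, but also the lowest of Wnt5a (7.66) and Wnt7b (7.41), and its Sfrp2 signal (7.50) lay between the others. In the knockout bleomycin group, array 1 had the lowest signals of Sfrp1, Frzb, Dkk2, Sfrp2, Dkk3 and Sfrp4 and the highest of Wnt2, Axin2 and Fzd7. The cardiac muscle list, 8 genes that mark heart tissue, differed between the same knockout arrays, with mean log2 signals of 7.19, 8.41 and 9.49 after bleomycin, and all 8 genes fell in wild type (9.16 to 9.77 after saline, 7.24 to 7.95 after bleomycin). Its part in the spread of the Wnt genes was not tested.

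Of the 45 genes, 28 had more than 1 probe set, and the others were compared with the brightest. All 5 probe sets of Sfrp1 rose in wild type, by 1.46 to 3.77 on the log2 scale, and 1 of them rose in the knockout (0.19 to 1.05). Both probe sets rose for Frzb (1.46 to 2.60), Fzd1 (1.02 to 1.13) and Dkk3 (0.40 to 0.87), and 3 of 4 for Wnt5a (0.16 to 1.35). The difference between responses passed in 4 of 5 probe sets of Sfrp1 (-2.81 to -0.84) and 3 of 4 of Wnt5a (-1.01 to 0.08). It passed in 1 of 2 of Frzb (-2.60 to -1.54) and 1 of 2 of Fzd1 (-0.97 to -0.85). Probe sets of other genes differed in direction, or only in whether they passed. Those that did not pass had mean log2 signals of 3.93 for Axin2, 4.46 for Wnt7b and 4.51 for Fzd6. They were brighter for Lef1 (5.08), Fzd7 (5.32) and Lrp6 (7.65), and that of Wnt5a was at 4.37. For Fzd4, 1 of 3 fell and the changes ran from -0.44 to 0.49, the last in a dim probe set (mean log2 signal 4.11). The second probe set, at 9.33 against 9.47 for the brightest, changed by -0.10 (adjusted p = 0.519). The mean of the Fzd4 probe sets changed by -0.02 (adjusted p = 0.945), so the fall rests on the brightest. For Fzd2, 2 of 3 rose, with changes from -0.19 to 0.53, and for Wnt7a 1 of 3 rose, from -0.00455 to 0.44. For Fzd6, 2 of 3 rose (0.03 to 0.95). For Wnt7b, 1 of 2 rose in each genotype (0.13 to 0.45 in wild type and 0.14 to 0.49 in the knockout). For Fzd7 1 of 2 fell (-0.58 to -0.08), for Axin2 1 of 2 (-0.67 to -0.25), for Lef1 1 of 2 (-0.73 to -0.38) and for Lrp6 1 of 2 (-0.36 to -0.15). With the mean of all probe sets in place of the brightest, the wild type call of Fzd2 was lost (0.27, adjusted p = 0.0889), and so were the knockout calls of Sfrp1 (0.75, adjusted p = 0.0588), Wnt5a (0.38, adjusted p = 0.0577), Axin2 (-0.27, adjusted p = 0.316) and Lef1 (-0.49, adjusted p = 0.0661).

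**Figure D4:**
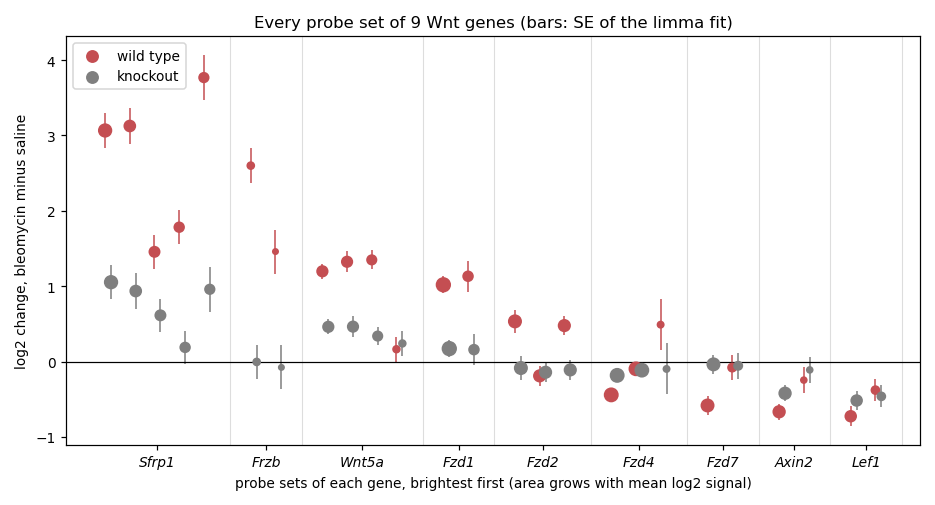
Log2 change from saline to bleomycin (vertical axis) of every probe set of 9 genes in wild type (red) and knockout (grey) lung, brightest first within a gene, with bars of 1 SE of the limma fit and a larger point for a higher mean signal. All 5 Sfrp1 probe sets lie above 0 in wild type, while those of Fzd4 run from -0.44 to 0.49.

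Between the genotypes after saline, 0 of the 45 genes passed (limma; 2 had an unadjusted p under 0.05), where 0.489% of all genes passed. The arrays of the genotypes did not overlap for 7 of the 45 genes and for 16.7% of all genes. The log2 differences, knockout minus wild type, ran from -0.38 for Sfrp2 to 0.35 for Wnt7a. With arrays weighted by their quality, Wnt7a passed (0.41, adjusted p = 0.0157), where 6.07% of all genes passed. After bleomycin 10 of the 45 genes passed (22.2%, where 15.4% of all genes passed, 7.52% upwards and 7.89% downwards), and the arrays did not overlap for 16 of the 45 and 33.3% of all genes. Lower in the knockout were Frzb (-2.52, adjusted p = 3.03e-05), Dkk2 (-2.23, adjusted p = 8.36e-05), Sfrp1 (-1.98, adjusted p = 0.000137) and Sfrp2 (-1.43, adjusted p = 0.000436). Fzd1 (-0.80, adjusted p = 0.000552), Wnt5a (-0.64, adjusted p = 0.00108) and Wnt10a (-0.53, adjusted p = 0.0104) were lower too. Higher in the knockout were Wnt2 (0.82, adjusted p = 0.00462), Fzd7 (0.46, adjusted p = 0.0213) and Axin2 (0.34, adjusted p = 0.0409).

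The call of Wnt10a was lost without knockout bleomycin array 1 (-0.44, adjusted p = 0.0526) and that of Fzd7 without array 1 of either bleomycin group (0.30 and 0.38, adjusted p = 0.0645 and 0.0969), with the mean of all probe sets (0.33, adjusted p = 0.078) and with only the 2 compared groups in the fit (0.46, adjusted p = 0.0809). That of Axin2 was lost without any 1 of 9 arrays, all but wild type saline arrays 2 and 3 and knockout bleomycin array 3 (0.22 to 0.38, adjusted p 0.0554 to 0.17), with the mean of all probe sets (0.28, adjusted p = 0.178) and with only the 2 compared groups (0.34, adjusted p = 0.0869). It was also lost with every probe set adjusted separately (adjusted p = 0.0612) and with the replicate number as a block (adjusted p = 0.0628).

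In all, 25 genes passed in none of the 5 comparisons. Of these, 6 had a group mean log2 signal of at least 7: the ligands Wnt4 (7.43 to 7.72 over the group means) and Wnt9a (6.90 to 7.12), the receptors Fzd3 (6.96 to 7.18), Fzd5 (7.85 to 8.14) and Fzd8 (7.35 to 7.45), and Ctnnb1. The other 19 had group means from 2.80 to 6.75. A missed threshold does not show that these genes kept their level.

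Beyond the 45 genes, 73 genes of the pathway from 8 lists were measured. In wild type 28 of them passed (38.4%, against the 27.7% of all genes), 14 upwards and 14 downwards. In the knockout 2 passed (2.74%, against 3.26% of all genes), the cell cycle gene Ccnd1 upwards and the planar polarity gene Prickle1 downwards. That count was 0 without any 1 knockout saline array or without knockout bleomycin array 3, where 1.16% to 1.6% of all genes passed. It was 1 without knockout bleomycin array 2 (1.35% of all genes) and 4 without wild type bleomycin array 1 (4.38%). The difference between responses passed for 6 (8.22%, against 5.02% of all genes), 2 upwards and 4 downwards. Between the genotypes 0 passed after saline (9 had an unadjusted p under 0.05), where 0.489% of all genes did, and 12 after bleomycin (16.4%, against 15.4% of all genes). The shares in the knockout and between the genotypes after bleomycin were thus near those of all genes.

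Of the 3 genes for making and releasing Wnt proteins, 2 rose in wild type: Porcn, which attaches the lipid (0.59 ± 0.13, adjusted p = 0.00421), and Wls, which carries the ligands to the surface (0.40 ± 0.12, adjusted p = 0.0237). Of 5 other receptors 3 rose: Ror1 (0.82 ± 0.09, adjusted p = 2.86e-05), Ror2 (1.14 ± 0.21, adjusted p = 0.00112) and Ptk7 (0.47 ± 0.13, adjusted p = 0.0152). Of all genes 13.3% rose in wild type. Ror2, a receptor for Wnt5a, was 5.35, 5.11 and 4.96 in wild type saline and 6.78, 6.12 and 5.94 in wild type bleomycin lungs. In the knockout Ror2 was 5.29, 5.14 and 4.73 after saline and 5.06, 5.52 and 5.23 after bleomycin, so that the groups overlapped. The response of Ror1 differed between the genotypes (-0.72 ± 0.13, adjusted p = 0.00879) and that of Ror2 did not pass (-0.92, adjusted p = 0.0857). The call of Wls was lost without wild type saline array 1 or 2 or wild type bleomycin array 2 or 3 (0.31 to 0.40, adjusted p 0.0547 to 0.102).

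The list of R-spondins, LGR receptors and the ubiquitin ligases Rnf43 and Znrf3, which remove Frizzled proteins from the membrane, had 3 falls and 0 rises among 9 genes in wild type. Of all genes 27.7% passed there, 14.4% downwards. Rnf43 fell by 0.79 on the log2 scale (adjusted p = 0.000417), Rspo1 by 0.72 (adjusted p = 0.00294) and Znrf3 by 0.56 (adjusted p = 0.0411). Rnf43 was 6.57, 6.30 and 6.47 in wild type saline, 5.44, 5.88 and 5.64 in wild type bleomycin, 6.12, 6.13 and 6.47 in knockout saline and 6.27, 6.38 and 6.43 in knockout bleomycin lungs. Its response differed between the genotypes, by 0.91 ± 0.18 (adjusted p = 0.0126). The call of Znrf3 was lost without any 1 of 7 arrays (the wild type saline arrays, wild type bleomycin 1 and 3, knockout bleomycin 2 and 3; -0.62 to -0.40, adjusted p 0.0507 to 0.154). It was also lost with the mean of all probe sets and with every probe set adjusted separately.

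Among 8 other antagonists, Igfbp4 (0.77, adjusted p = 0.000352), a growth factor binding protein that also blocks Frizzled and Lrp6, and Apcdd1 (0.60, adjusted p = 0.0022) rose and Nkd1 (-0.79, adjusted p = 0.00118), an inhibitor inside the cell, fell. In wild type 13.3% of all genes rose and 14.4% fell. The 14 Dishevelled and destruction complex genes had 0 rises and 2 falls, a share of falls near that of all genes. The 2 were Dvl1 (-0.37, adjusted p = 0.0367) and Amer1 (-0.23, adjusted p = 0.0471). Leaving out arrays ended both calls: Dvl1 without wild type saline array 1 or 2 or wild type bleomycin array 3 (adjusted p 0.0914 to 0.143), Amer1 without any 1 of 10 arrays, all but wild type saline array 2 and wild type bleomycin array 1 (adjusted p 0.0501 to 0.154). Dvl1 was also lost with every probe set adjusted separately and with only the 2 compared groups. Amer1 was lost under 16 of 21 alternatives in all. Of 12 nuclear partners of beta-catenin 3 rose and 4 fell, among them Ctnnbip1 (0.94, adjusted p = 0.000158), which blocks the binding of beta-catenin to Tcf proteins, Tcf7l2 (0.49, adjusted p = 0.000882), Bcl9l (-0.50, adjusted p = 0.0027) and Tle1 (-0.44, adjusted p = 0.00297). Of 12 planar polarity genes 2 fell, Prickle1 (-1.13, adjusted p = 2.15e-05) and Prickle2 (-0.38, adjusted p = 0.00862), again a share near that of all genes. Prickle1 also fell in the knockout (-0.60, adjusted p = 0.0181), a call lost without any knockout saline array or knockout bleomycin array 3 (-0.61 to -0.49, adjusted p 0.0529 to 0.076) and with the mean of all probe sets (-0.16, adjusted p = 0.321).

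The 16 genes known as targets of beta-catenin in several tissues did not move one way: 5 rose and 5 fell in wild type, where 13.3% of all genes rose and 14.4% fell. Ccn4, a matricellular protein also called Wisp1, was 6.55, 6.60 and 6.84 in wild type saline, 9.35, 8.32 and 8.22 in wild type bleomycin, 6.25, 6.36 and 6.29 in knockout saline and 6.84, 7.22 and 7.19 in knockout bleomycin lungs. Its change was 1.97 ± 0.23 in wild type, 3.91-fold (adjusted p = 4.21e-05), and the knockout change (0.78, adjusted p = 0.0854) and the difference (-1.18, adjusted p = 0.0522) did not pass. Both were close to the threshold. The difference of Ccn4 passed without any 1 of the wild type bleomycin arrays (-1.39 to -0.82, adjusted p 0.0183 to 0.0379), with array weights (-1.05, adjusted p = 0.0141), with the mean of all probe sets (-1.33, adjusted p = 0.0232) and among genes with a mean signal of at least 5 (-1.18, adjusted p = 0.0481). Its knockout rise passed without wild type bleomycin array 1 (0.78, adjusted p = 0.00279), with array weights (0.80, adjusted p = 0.0156), with the mean of all probe sets (0.95, adjusted p = 0.0256) and with only the 2 compared groups (0.78, adjusted p = 0.00983). Myc rose by 1.37 (2.58-fold, adjusted p = 4.08e-06) and Cd44 by 0.72 (adjusted p = 3.39e-05), while Bambi, a decoy receptor of the TGF-beta family, fell by 1.13 (adjusted p = 1.83e-05). Ccnd1 rose in wild type by 0.31 (adjusted p = 0.039) and in the knockout by 0.48 (adjusted p = 0.0264). The wild type call of Ccnd1 was lost without any 1 of 7 arrays (wild type saline 3, the wild type bleomycin arrays, the knockout saline arrays; adjusted p 0.0515 to 0.147) and the knockout call without a knockout saline array or knockout bleomycin array 2 or 3 (adjusted p 0.0633 to 0.0999). In all, 12 of 21 alternatives lost the wild type call. Besides arrays left out, these were array medians subtracted, repeated quantile normalization, separate probe sets, only the 2 compared groups and the replicate block. Several of these genes answer to other pathways too, and 6 of the genes stand in 2 of the lists.

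**Figure D5:**
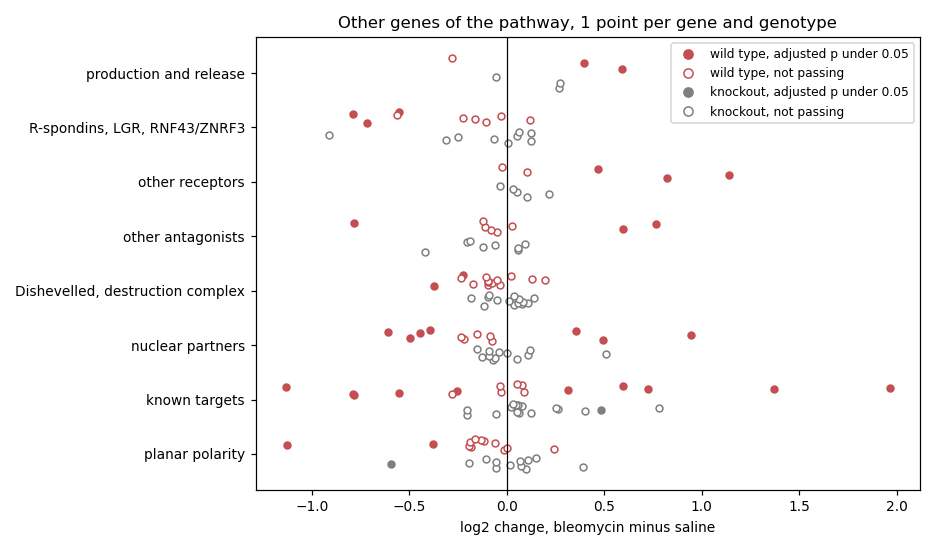
Log2 change from saline to bleomycin (horizontal axis) of the genes of 8 pathway lists, 1 point per gene in wild type (red) and knockout (grey) lung, filled for an adjusted p under 0.05. Known targets spread from -1.13 (Bambi) to 1.97 (Ccn4) in wild type, and in the knockout the filled points are Ccnd1 and Prickle1.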

How the data were processed

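Total RNA of 12 whole-lung samples was labelled and hybridized to Affymetrix expression arrays. The deposited table holds log2 values of 45101 probe sets per array, and the submitters' processing notes list RMA, affy and limma with no settings. RMA corrects background, sets all arrays to 1 distribution and summarises probes, so values are relative within the arrays and near background they compress changes. Probe sets paired with 1 gene (34958) were used, and the brightest on average stood for its gene (18194 genes), with no filter. Detection calls were not used, and the number of arrays limits the precision.

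All arrays entered 1 limma fit (limma 3.58.1, R 4.3.3) with a mean per group, no block, and eBayes without trend. The 5 comparisons were the response to bleomycin of either genotype, the difference of the 2 responses, and the genotypes after saline and after bleomycin. Passing means an adjusted p (Benjamini-Hochberg, all genes) under 0.05. SE is from the fit, SD over the 3 arrays, intervals are 95% without adjustment. The procedure was tested on simulated data. Plots used Python 3.11.15 and matplotlib 3.10.9.

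The genes and all lists were chosen with earlier results of these data known. Genes called in at least 1 comparison, and Axin2, Lef1 and Ctnnb1, are given array by array, and others with a group mean of at least 7 by their levels. Of the pathway lists, at most the 4 called genes with the smallest p per list and comparison are named, and marker lists of cell types are given by counts and mean levels. Of the marker lists that are not described beside a gene, in wild type 4 of 5 alveolar type 2, 4 of 5 club, 5 of 6 ciliated and 1 of 5 adipocyte genes fell, 1 of 6 alveolar type 1 genes rose and 2 fell, and 4 of 6 macrophage genes rose. In the knockout 4 of 6 macrophage genes rose, 1 of 6 smooth muscle and 1 of 8 cardiac muscle genes fell, and 0 passed in the alveolar, club, ciliated, mesothelial and adipocyte lists. Alternatives were array medians subtracted, repeated quantile normalization, a minimum mean of 5, the mean of all probe sets, all probe sets adjusted separately, trend and robust, array weights, only the compared groups, the replicate number as a block, and each array left out.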

Additional observations from a re-analysis of the deposited data

Results flagged for a closer look

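The genotypes' responses to bleomycin differed, by the test of the difference itself (limma, adjusted p under 0.05), for 6 genes of the Wnt set. The log2 difference, knockout minus wild type, was -2.60 for Frzb, -2.42 for Dkk2, -2.01 for Sfrp1, -1.06 for Sfrp2, -0.85 for Fzd1 and -0.74 for Wnt5a. All 3 wild type bleomycin arrays were above all 3 knockout bleomycin arrays for each of these genes. The call of Sfrp2 was lost under 12 of 20 alternatives: without any 1 of 9 arrays, all but wild type saline array 3, wild type bleomycin array 2 and knockout bleomycin array 3 (adjusted p 0.0519 to 0.104), with repeated quantile normalization (-0.96, adjusted p = 0.0606), with the mean of all probe sets (-1.06, adjusted p = 0.0519) and with every probe set adjusted separately (-1.06, adjusted p = 0.0696). The background beside them is the 5.02% of all genes that passed this test.

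The difference also passed for 6 genes of the pathway lists. It was 1.16 for Bambi, 0.91 for Rnf43, -1.10 for Myc, -0.72 for Ror1, -0.67 for Igfbp4 and -0.47 for Cd44. The call of Cd44 was lost without any 1 of 9 arrays, all but wild type saline array 2, wild type bleomycin array 2 and knockout bleomycin array 3 (-0.49 to -0.41, adjusted p 0.0575 to 0.0916). The call of Igfbp4 was lost without any 1 of 8 arrays, all but wild type saline array 1, wild type bleomycin array 2 and knockout bleomycin arrays 2 and 3 (-0.70 to -0.54, adjusted p 0.0503 to 0.0846). Both were also lost with every probe set adjusted separately (adjusted p = 0.0552 for Cd44 and 0.0582 for Igfbp4) and with the replicate number as a block (0.0627 and 0.0688), and Cd44 with array medians subtracted (0.0684). No outlier test was made, since each group holds 3 arrays.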

How the results depend on the processing

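The number of genes of the Wnt set that passed was 16 to 20 for bleomycin in wild type when each array was left out in turn (20 with all arrays) and 16 to 25 under the other alternatives. In the knockout it was 0 to 6 when arrays were left out (5 with all). It was 3 with array medians subtracted (3.12% of all genes passed) or with every probe set adjusted separately (2.07%). It was 2 with only the compared groups (3.8%) and 1 with the mean of all probe sets (2.78%). The difference between responses gave 5 to 7 and 4 to 8 genes (6) and the genotypes after bleomycin 7 to 12 and 8 to 11 (10). The genotypes after saline gave 0 in all but array weights, which gave 1 where 6.07% of all genes passed. For the pathway lists, the knockout count of 2 became 0 to 4 when arrays were left out. It became 6 of 73 with array weights (7.07% of all genes passed) and 4 with only the compared groups (3.8%). After saline the count of 0 became 5 of 73 with array weights, where 6.07% of all genes passed. With the replicate number as a block 20, 4, 6, 0 and 9 genes passed in the order of wild type, knockout, difference, saline and bleomycin. The numbers gave no sign of a pairing of the arrays: deviations of same-numbered arrays correlated at -0.297 to 0.203, over 0.1 in 2 of 18 pairs. Of 12 arrays, 2 correlated best with their own number. With 3 arrays per group this cannot exclude a pairing. Direction changed only for values that had not passed. In the knockout the change of Frzb was 0.0335 with medians subtracted and 0.00988 with array weights, that of Fzd7 0.00126 with medians subtracted and that of Lrp6 -0.00567 with repeated quantile normalization. When arrays were left out in turn, the knockout changes crossed 0 for Frzb (-0.106 to 0.137), Dkk2 (-0.0333 to 0.181), Sfrp2 (-0.0143 to 0.317), Fzd2 (-0.229 to 0.00759), Fzd7 (-0.122 to 0.0272) and Lrp6 (-0.0626 to 0.0748), and so did the difference between responses of Wnt7b (-0.025 to 0.132). The difference for Fzd4 was -0.12 with the mean of all probe sets. In wild type, Sfrp1, Frzb, Dkk2, Sfrp2, Dkk3, Wnt5a, Wnt7b, Wnt10a, Wnt2, Fzd1, Axin2 and Lef1 passed under every alternative that tested them. The differences for Sfrp1, Frzb, Dkk2, Fzd1 and Wnt5a did so too. These alternatives read each gene by its brightest probe set or by the mean of all. Taken singly, 1 of 2 probe sets passed for the difference of Frzb and of Fzd1, 3 of 4 for Wnt5a and 4 of 5 for Sfrp1.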
